A study of Mus musculus with 6 samples.

Results

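The genes described here form the module that makes, matures, receives and reads the Nodal signal in J1 mouse embryonic stem cells: the ligand genes Nodal, Gdf1 and Gdf3, the co-receptor genes Tdgf1 and Cfc1, the convertase genes Furin and Pcsk6, the antagonist gene Cer1 and the nuclear factor gene Foxh1. They were found by matching the RefSeq accession of every non-control probe to these 9 genes, which gave 13 probes of 55600 with usable spots. Of the 9 genes, 8 entered the test with 12 probes, all well above background, by the scanner program's flag, on all 6 arrays. A probe without that flag on an array is called dim there. Cer1 did not enter it. In all, 20645 genes with a symbol had probes.

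Cells of the J1 line, from the inner cell mass of strain 129S4/SvJae, were kept for 24 h with 3 µM SB431542 (3 arrays) or with DMSO (3 arrays). SB431542 is a small molecule that blocks the kinases ALK4, ALK5 and ALK7, the type I receptors through which Nodal, activin and TGF-beta signal, and DMSO is its solvent. Both groups were gelatin-adapted and grew on 0.2% gelatin in knockout medium with 15% serum replacement and 1000 U/ml LIF, a cytokine that holds mouse embryonic stem cells in self-renewal. The comparison asks how the module's transcripts stand after these receptors have been inhibited in self-renewing cells of 1 line. SB431542 replicate 3 was alone on slide 2 with a scan of its own, while the other 5 arrays shared slide 1.

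Nodal is a secreted ligand of the TGF-beta superfamily that patterns the early embryo and directs cells toward mesoderm and endoderm. Its precursor is cut by the proprotein convertases Furin and Pcsk6. The mature ligand signals through activin receptors together with an EGF-CFC co-receptor, Tdgf1 (Cripto) or Cfc1 (Cryptic). The receptors phosphorylate Smad2 and Smad3, which with Smad4 and the forkhead protein Foxh1 activate target genes, among them Nodal itself and its antagonists Lefty1 and Lefty2.

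The promoters of the 4 member genes that passed the test are shown so that motifs of the pathway's own factors can be seen beside the genes that changed. Sequences are from RefSeq on build GRCm38.p6, whose table held 9 promoters of 7 of the 9 members, and each line gives the 250 bases before an annotated start, 5′ to 3′ on the gene's strand. Capitals mark the Smad-type motif CAGAC or its reverse complement GTCTG. Gdf1 has a pair of annotated starts, and the first promoter is also that of the overlapping gene Cers1.
Nodal, chr10:61417722-61417971, plus strand: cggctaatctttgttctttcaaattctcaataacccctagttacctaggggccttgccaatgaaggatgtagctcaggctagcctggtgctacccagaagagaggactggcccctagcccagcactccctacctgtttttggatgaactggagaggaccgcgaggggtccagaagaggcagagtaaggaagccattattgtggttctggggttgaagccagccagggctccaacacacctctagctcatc
Tdgf1, chr9:110946159-110946408, minus strand: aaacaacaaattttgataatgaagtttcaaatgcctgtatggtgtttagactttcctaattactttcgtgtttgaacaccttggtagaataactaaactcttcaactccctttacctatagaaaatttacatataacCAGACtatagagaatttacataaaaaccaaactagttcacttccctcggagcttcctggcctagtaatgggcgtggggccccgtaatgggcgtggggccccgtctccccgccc
Cfc1, chr1:34535398-34535647, plus strand: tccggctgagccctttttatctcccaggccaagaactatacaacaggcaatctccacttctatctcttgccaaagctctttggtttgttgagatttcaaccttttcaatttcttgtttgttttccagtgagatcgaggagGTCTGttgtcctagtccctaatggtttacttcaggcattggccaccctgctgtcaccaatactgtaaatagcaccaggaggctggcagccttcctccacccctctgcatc
Gdf1 and Cers1, chr8:70315525-70315774, plus strand: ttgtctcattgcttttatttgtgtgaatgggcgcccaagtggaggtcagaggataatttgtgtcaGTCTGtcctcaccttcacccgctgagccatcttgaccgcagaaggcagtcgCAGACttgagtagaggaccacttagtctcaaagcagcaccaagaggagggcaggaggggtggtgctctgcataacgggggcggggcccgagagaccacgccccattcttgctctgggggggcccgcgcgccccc
Gdf1, chr8:70329515-70329764, plus strand: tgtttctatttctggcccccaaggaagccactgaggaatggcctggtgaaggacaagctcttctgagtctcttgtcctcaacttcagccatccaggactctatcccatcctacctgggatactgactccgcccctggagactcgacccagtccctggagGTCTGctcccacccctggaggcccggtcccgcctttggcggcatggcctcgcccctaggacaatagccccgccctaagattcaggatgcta

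CAGAC, searched on both strands, was found in 7 of the 9 member promoters, and in 42.2% of 32817 promoters of that length. The Tdgf1 match began 113 bases before the start and the Cfc1 match 110 bases before it. The first Gdf1 promoter held 2 matches and the second held 1. The Nodal and Pcsk6 windows held none. Furin, which did not pass the test, held matches beginning 190, 163 and 44 bases before its annotated starts. Cer1, which was not tested, held a match 213 bases before its start. The Foxh1-type motif AATNCACA was in 0 of the 9 member promoters and in 3.18% of all promoters, and the Smad palindrome GTCTAGAC in 0 of the 9 and in 0.168% of all. CAGAC does not occur within either of the other motifs. These matches describe letters within 250 bases and say nothing of enhancers.

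Transcripts of Nodal, Gdf1 and Tdgf1 were lower in SB431542 cells and that of Cfc1 was higher, so that the module's co-receptor genes moved in opposite directions. Tdgf1 fell to 48.7% of its DMSO level, Nodal to 64.7% and Gdf1 to 70.8% by its brighter probe, while Cfc1 rose 1.998-fold. Gdf3, Furin, Pcsk6 and Foxh1 did not pass the test. Levels are log2 signals minus the log2 of the array's 75th percentile, a change is the SB431542 mean minus the DMSO mean, and a gene with several probes is represented by its brightest. The test was limma's moderated test over 25899 features with Benjamini-Hochberg adjustment and a threshold of 0.05, and "rose" and "fell" are used of what passed it. Of the 8 members tested, 4 passed, set beside 12.6% of all features. Fewer members rose (1, with a background of 5.19% of features) than fell (3, with a background of 7.39%). The median change of the 8 was -0.02, and that of all features 0.02.

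**Figure D1:**
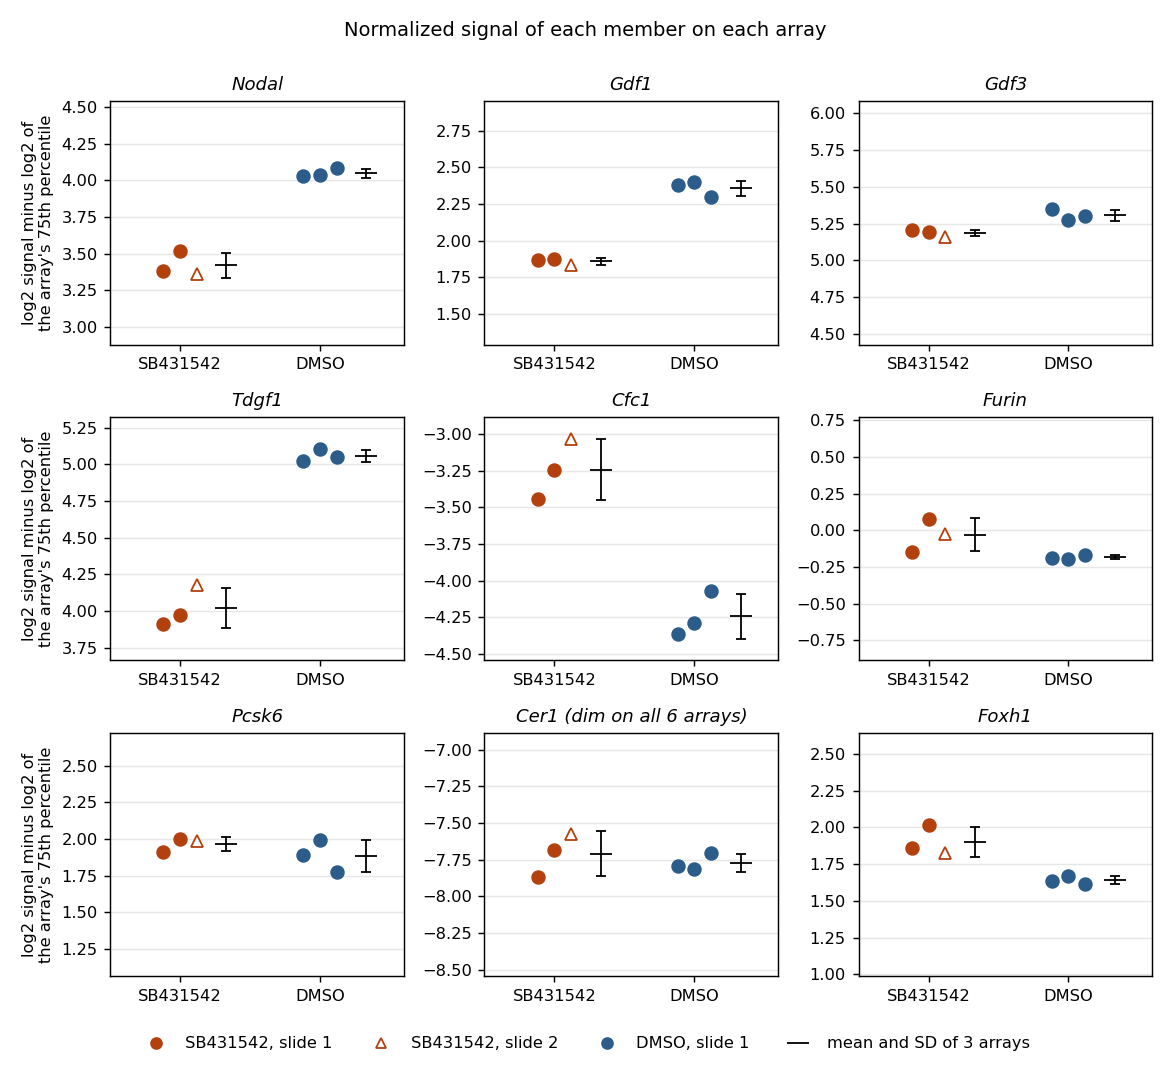
Normalized log2 signal (vertical axis, relative to the array's 75th percentile) of the 9 members on each SB431542 and DMSO array, with mean and SD of 3 arrays per group; all vertical axes span at least 1.5 log2 units. The SB431542 points of Nodal, Gdf1 and Tdgf1 all lie below the DMSO points, those of Cfc1 all lie above, and Cer1 was dim on all 6 arrays.

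Nodal, the ligand that gives the pathway its name, had levels of 3.38, 3.52 and 3.36 on the SB431542 arrays, against 4.03, 4.03 and 4.08 on the DMSO arrays. The groups lay 0.51 apart, more than the range within either of them (0.16 with SB431542 and 0.06 with DMSO). Nodal averaged 3.42 ± 0.08 with SB431542 and 4.05 ± 0.03 with DMSO (SD, n = 3 each). It fell by 0.63 on the log2 scale (SE 0.06, 95% interval of the change -0.78 to -0.48, limma adjusted p = 0.00302). Its raw processed signal ran from 5182 to 5797 with SB431542 and from 8732 to 9072 with DMSO, far over the lowest signal called well above background on any array (8.59 to 10.9), so the transcript was still readily measured under the inhibitor.

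Gdf1, a ligand of the Vg1 type that acts with Nodal, had a pair of probes on the array, matched to different RefSeq transcripts. The brighter probe, for NM_008107, had levels of 1.87, 1.88 and 1.83 with SB431542, against 2.38, 2.40 and 2.30 with DMSO. Those groups did not overlap, and the probe fell by 0.50 (SE 0.05, 95% interval of the change -0.63 to -0.37, limma adjusted p = 0.00367). The fainter probe, for NM_001163282, had levels of -4.35, -3.84 and -4.51 with SB431542, against -4.46, -4.82 and -4.18 with DMSO. Here the groups overlapped, the ranges within them reached 0.68 and 0.64, and the change was 0.26 (95% interval -0.31 to 0.82, adjusted p = 0.532 in the limma fit with every probe on its own). With the mean of both probes in place of the brighter one, the Gdf1 change was -0.12 and no longer passed (limma adjusted p = 0.555). Upf1, which overlaps Gdf1 in the annotation, had a log2 difference of -0.01 ± 0.07 (SE). Cers1, which also overlaps Gdf1, had no matched probe and was not measured.

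Gdf3, the other Vg1-type ligand gene and one known to be expressed in mouse embryonic stem cells, also had a pair of probes, both for NM_008108. The brighter had levels of 5.20, 5.19 and 5.16 with SB431542, against 5.35, 5.27 and 5.30 with DMSO. These groups lay apart by 0.07 only, and the change of -0.12 (95% interval -0.24 to -0.0012) did not pass after adjustment (limma adjusted p = 0.177). The second probe had levels of 1.79, 1.85 and 1.81 with SB431542, against 1.74, 1.65 and 1.65 with DMSO, and had a log2 difference of the opposite sign, 0.14 (95% interval -0.0006 to 0.27 in the limma fit with every probe on its own). Both intervals leave out a shift of the size seen for Nodal. With the mean of both probes the change was 0.0071.

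Tdgf1, the gene of the co-receptor Cripto, showed the largest fall among the members tested. Its brightest probe had levels of 3.91, 3.97 and 4.17 with SB431542, against 5.02, 5.10 and 5.05 with DMSO. The groups lay 0.85 apart, and SB431542 replicate 3 was the highest of its group. The change was -1.04 (SE 0.08, 95% interval -1.24 to -0.84, limma adjusted p = 0.00142). The other probes of Tdgf1 fell by 1.12 each, to 46.1% and 46.0% of the DMSO level (adjusted p = 0.000666 and 0.00117 in the limma fit with every probe on its own). All Tdgf1 probes were thus lower on every SB431542 array than on every DMSO array. The RefSeq gene table lists the pseudogenes Tdgf1-ps1 and Tdgf1-ps2, with which these probes may share signal.

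Cfc1, the gene of the second EGF-CFC co-receptor, Cryptic, was measured at low signal. Its levels were -3.45, -3.25 and -3.03 with SB431542, against -4.37, -4.29 and -4.07 with DMSO, and the groups lay 0.62 apart. The processed signal was 47.0, 47.6 and 69.0 with SB431542 and 26.2, 27.3 and 31.9 with DMSO, above the lowest signals called well above background. Cfc1 averaged -3.24 ± 0.21 with SB431542 and -4.24 ± 0.15 with DMSO (SD, n = 3 each). It rose by 1.00 (SE 0.13, 95% interval 0.68 to 1.32, limma adjusted p = 0.00704). Under normexp correction of the median spot signals, with an offset of 50 added, the change was 0.49 and still passed (limma adjusted p = 0.00154); the parts of that setting were not tried separately. In the annotation Prss39 lies beside Cfc1 and Prss40 overlaps it, and both were too dim to be tested.

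**Figure D2:**
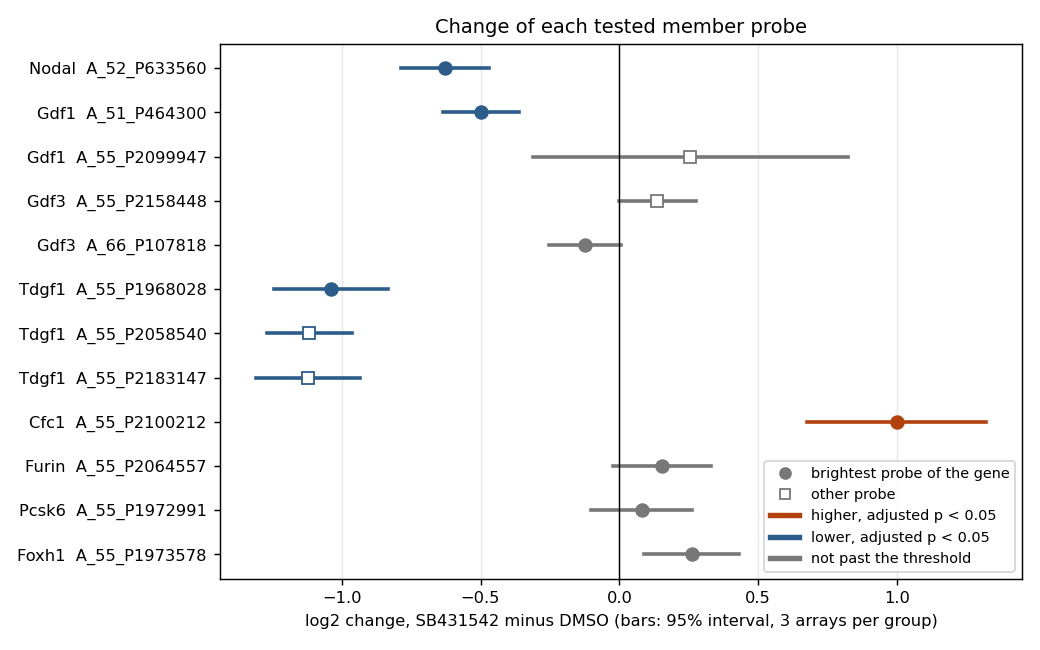
Log2 change (SB431542 minus DMSO, horizontal axis) of the 12 tested member probes with 95% intervals from the fit with every probe on its own. The 3 Tdgf1 probes lie between -1.12 and -1.04, Cfc1 lies at 1.00, and the paired probes of Gdf1 and of Gdf3 lie on opposite sides of 0.

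With every probe on its own, 6 of the 12 member probes passed, beside 10.8% of all probes. Of the 6, 5 fell, beside 6.49% of all probes, and 1 rose, beside 4.31%. The 5 belong to Nodal, Gdf1 and Tdgf1, and probes of 1 gene share their target, so they are not separate evidence.

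The convertase genes stayed within narrow intervals of the DMSO level. Furin, the ubiquitous convertase of the secretory pathway, had levels of -0.15, 0.08 and -0.02 with SB431542, against -0.19, -0.20 and -0.17 with DMSO. The SB431542 arrays were slightly higher and more scattered, and the change of 0.15 (95% interval -0.02 to 0.33) did not pass (limma adjusted p = 0.222). Pcsk6, also called PACE4, had levels of 1.91, 2.00 and 1.98 with SB431542, against 1.89, 1.99 and 1.78 with DMSO. These groups overlapped, and the change was 0.08 (95% interval -0.10 to 0.26, limma adjusted p = 0.516). The intervals bound Furin at 98.7% to 125% and Pcsk6 at 93.5% to 120% of the DMSO level.

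Cer1, a secreted protein that binds Nodal and blocks it, is known from the anterior visceral endoderm. Its probe was dim on all 6 arrays. Levels were -7.87, -7.68 and -7.57 with SB431542, against -7.80, -7.82 and -7.71 with DMSO, so it was not detectable in either group and no fold is given.

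Foxh1, the DNA-binding partner of Smad2 and Smad3, had levels of 1.86, 2.02 and 1.83 with SB431542, against 1.64, 1.67 and 1.62 with DMSO. All SB431542 arrays were higher, with a gap of 0.16 between the groups. The change of 0.26 (SE 0.07, 95% interval 0.10 to 0.43) just missed the threshold after adjustment (limma adjusted p = 0.0601). It passed under 4 other settings (normexp, median scaling, and an intensity trend with and without a robust fit), where the limma adjusted p ran from 0.0145 to 0.0464. Kifc2, which overlaps Foxh1 in the annotation, had a log2 difference of 0.20 ± 0.06 (SE, limma adjusted p = 0.0981).

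Of the 8 members tested, the groups did not overlap for 7, of which 3 were higher and 4 lower with SB431542. Among all features 36.0% did not overlap, 18.6% higher and 17.3% lower. The member changes without SB431542 replicate 3 were -0.60 for Nodal, -0.49 for Gdf1, -1.12 for Tdgf1 and 0.89 for Cfc1, and all 4 still passed. A fit with slide as a block must give the same values, because slide 2 held SB431542 replicate 3 alone, so it adds no separate check.

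**Figure D3:**
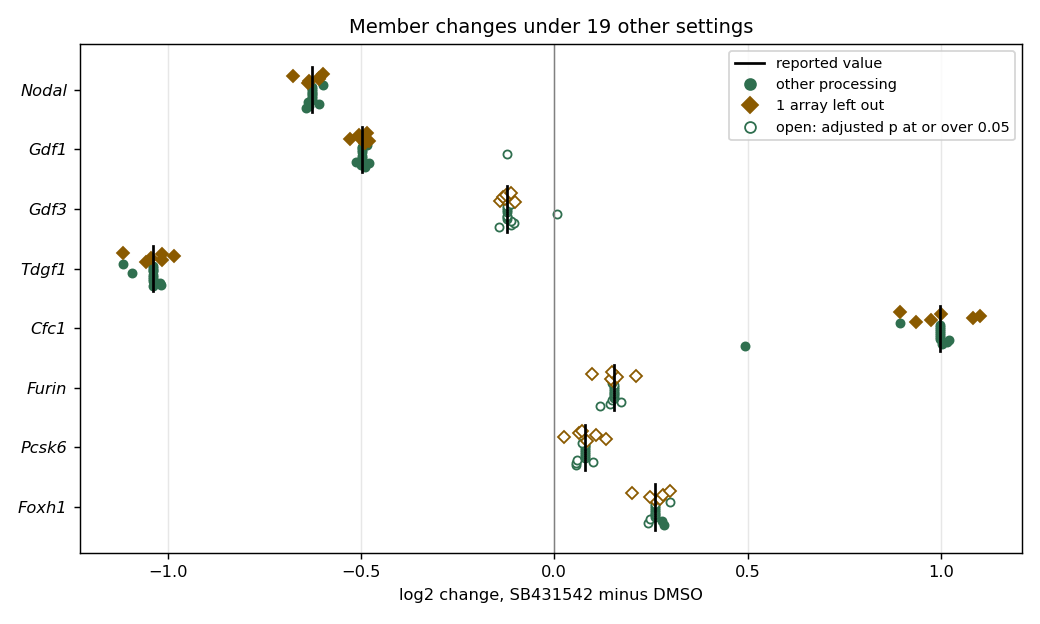
Log2 change of each of the 8 tested members (horizontal axis) as reported (black bar) and under 19 other settings, with open marks where the adjusted p was 0.05 or more. Nodal and Tdgf1 stay close to their reported values, Cfc1 drops to 0.49 under normexp, and Gdf1 moves to -0.12 with the mean of its probes.

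Of 5 measured feedback and target genes of the pathway, 5 fell and 0 rose, with a median change of -4.59. Among all features 7.39% fell and 5.19% rose. Lefty1 had levels of -5.62, -4.92 and -4.94 with SB431542, against 4.28, 4.20 and 4.31 with DMSO, and was dim on 1 of the SB431542 arrays. Lefty2 had levels of -1.71, -1.85 and -2.10 with SB431542, against 2.99, 2.99 and 2.90 with DMSO. Smad7, an inhibitory Smad gene, fell by 4.59. The least change among these genes was that of Skil, a Smad co-repressor gene, at -1.34 ± 0.07 (SE), against -1.04 ± 0.08 for Tdgf1, and the difference between these genes was not tested.

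Among receptors and Smads 1 gene changed. Of 7 measured, 1 rose and 0 fell, beside 5.19% and 7.39% of all features, with a median of 0.05. Smad3, a signal transducer of the pathway, rose by 0.28 ± 0.06 (SE, limma adjusted p = 0.0386), and Smad2, at 0.14 ± 0.06, did not pass. Acvr1c, which encodes ALK7, was dim on all 6 arrays. Of 7 measured nuclear partners of Foxh1 and Smad2/3, 1 fell and 0 rose, beside 7.39% and 5.19% of all features. That was the Smad co-repressor gene Ski, at -0.63 ± 0.10 (SE, limma adjusted p = 0.0160), while Drap1, an inhibitor of Foxh1, had a difference of 0.04 ± 0.07.

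None of the 7 other proprotein convertase genes passed limma's test, beside 12.6% of all features, and their median was -0.10. At an unadjusted p under 0.05 there were 2, beside 27.6% of all features. Pcsk7 came nearest at 0.24 ± 0.07 (limma adjusted p = 0.0765). Of 6 factors that act on Nodal or Cripto protein 0 passed limma's test, beside the same 12.6%, and the median was -0.09. At an unadjusted p under 0.05 there were 4 of these factors, beside the same 27.6%. Among these, Tmem147, a partner of nicalin and Nomo, had a difference of 0.26 ± 0.07 (limma adjusted p = 0.0629). Of 6 other genes of the Cerberus and DAN family only 2 were measured, Dand5 and Nbl1, at 0.05 ± 0.11 and 0.05 ± 0.05 (SE), and neither passed.

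Some other ligand genes of the Smad2/3 branch rose and some fell, 1 and 3 of 6 measured. Among all features 5.19% rose and 7.39% fell. The median change of these ligand genes was -0.16. Gdf11 had levels of -3.50, -3.41 and -3.61 with SB431542, against -4.39, -4.39 and -4.36 with DMSO, and rose by 0.87 ± 0.07 (SE, limma adjusted p = 0.00131). Tgfb2, which averaged -4.95 with SB431542 and -4.30 with DMSO, fell by 0.64 on the log2 scale. Inhbb, which encodes a subunit of activin B, fell by 0.41. Gdf11 and Tgfb2 were measured at low signal, with mean levels under those of Cfc1 in both groups.

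**Figure D4:**
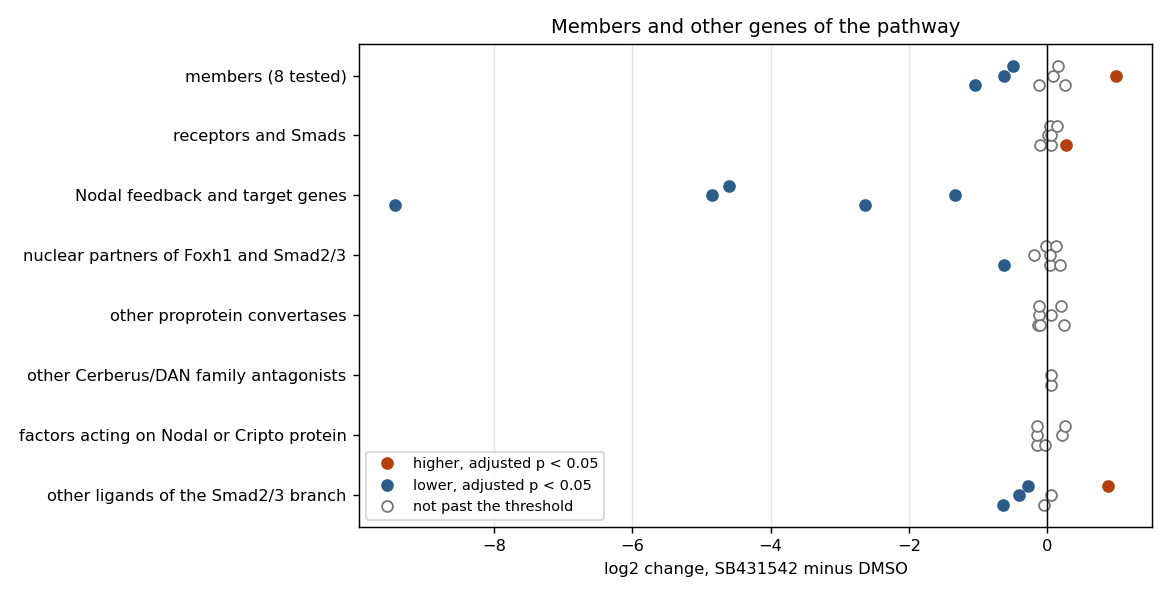
Log2 change (SB431542 minus DMSO, horizontal axis) of the 8 tested members and of the measured genes of 7 other lists; each point is 1 gene. The 5 feedback and target genes lie at or below -1.34, whereas the members lie between -1.04 and 1.00.

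The labelled cell type was checked against its markers. All 10 embryonic stem cell markers were well above background on all 6 arrays. Of these, 3 fell (Dppa5a, Utf1 and Fgf4) and 0 rose. Among all features 7.39% fell and 5.19% rose, the shares to set beside each marker list here. The stem cell markers summed to 505 to 563 with SB431542 and 668 to 691 with DMSO, in multiples of the 75th percentile. Dppa5a alone averaged 272 with SB431542 and 382 with DMSO, the other markers summed to 249 to 276 with SB431542 and 294 to 300 with DMSO, and the median log2 change of the list was -0.12. Pou5f1, Sox2 and Nanog did not pass. Endoderm markers, of which 9 of 10 were measured, summed to 2.80 to 2.97 with SB431542 and 2.32 to 2.58 with DMSO, with Hhex and Pdgfra higher and Afp untested. Hhex alone averaged 1.75 with SB431542 and 1.36 with DMSO. The sums of the others overlapped (1.05 to 1.19 with SB431542 and 1.04 to 1.11 with DMSO), and the list's median log2 change was -0.04. Of the endoderm markers that did not pass, Gata6 was at 0.41 and Sox7 at 0.08. On the lower side were Gata4 at -0.27, Dab2 at -0.23, Foxa2 at -0.10 and Sox17 at -0.04. Ttr also averaged lower without passing. Only 1 of the 3 SB431542 arrays measured Ttr above background, so no size is given for it. Fibroblast markers, 8 of 10 measured, summed to 7.88 to 9.14 with SB431542 and 8.97 to 9.98 with DMSO, with 3 lower (Col1a2, Pdgfrb and Dcn) and Postn and Lum dim on all 6 arrays. Dcn was dim on all 3 SB431542 arrays and entered the test through the DMSO arrays alone. It is given only as a bound, at least 1.87-fold lower. The median log2 change of the fibroblast list was -0.22, and Tagln, with the largest difference in level, averaged 6.25 with SB431542 and 7.11 with DMSO. Without Tagln the sums did not overlap (1.95 to 2.14 with SB431542 and 2.42 to 2.58 with DMSO). Primitive streak markers, 6 of 8 measured, summed to 1.28 to 1.36 with SB431542 and 1.41 to 1.51 with DMSO, with Fgf8 lower and Mixl1 dim on all 6 arrays. Without Fgf8 the sums overlapped (1.20 to 1.28 with SB431542 and 1.18 to 1.26 with DMSO), and the list's median log2 change was 0.02, with Gsc at 0.49 and Mesp1 at 0.33, neither of which passed. Their part in the members' changes was not tested, and in bulk RNA fewer cells of a type and less RNA per cell cannot be told apart.

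By Euclidean distance between values centred over the 6 arrays, among 15640 genes, those most like Nodal were Ly6e (distance 0.08), Map6 (0.08) and Calca (0.09). Those most like Tdgf1 were Calcr (0.10), Mup20 (0.12) and Igfbpl1 (0.13). Those most like Cfc1 lay farther off and were Id1 (0.24), Klk11 (0.25) and Klk1 (0.25). The distance takes in the difference between the groups as well as the spread within them.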

How the data were processed

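Total RNA of 3 SB431542 and 3 DMSO samples was measured on 1-colour Agilent arrays labelled with Cy3. Groups and replicate numbers come from the sample titles. The labels do not say whether replicates came from separate cultures. The p-values therefore reflect only sample-to-sample spread, possibly technical. The deposited intensity values had background subtracted and spatial trends removed within arrays by Agilent Feature Extraction, per the file headers (10.7 in the submitters' processing notes). Flags for dim, outlier and saturated spots, each a score of 0 or 1, were set by that program, per the file headers. A table of log2 values deposited by the authors, with normalization not given in the sources used here, served as an alternative; its columns had medians of 5.18 to 5.19.

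Each array had 59305 non-control spots, of which 63.9% to 66.2% were well above background, 137 to 194 were outliers and 0 were saturated. Outlier spots were left out, which removed 81 probes, and the other spots of a probe were averaged. The 75th percentile of the signal was 453 to 565 and was taken off on the log2 scale. Probes flagged well above background on 3 or more of 6 arrays were kept (36184). Accessions were matched without version to a RefSeq table of GRCm38.p6, which named 27200 probes. The array grid uses mm9, so probes and genes are given no coordinates; those printed with the promoters are positions of the RefSeq sequences on GRCm38.p6. SB431542 minus DMSO was fitted with limma 3.58.1 in R 4.3.3 (Python 3.11.15 for reading), checked on simulated data. The planned normexp correction used median spot signals, since the files hold no mean signal. On slide 1 the DMSO arrays lay in row 1 and SB431542 replicates 1 and 2 in row 2, so row and treatment cannot be told apart there. The number of arrays limits the precision.

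The members and gene lists were chosen with earlier results of these data known. The genes named are all 9 members, up to 3 genes per list with the smallest adjusted p, the 3 most similar genes of Nodal, Tdgf1 and Cfc1, and the neighbours of each member that had a probe. Other genes of those lists are named where a count or a role called for it, after their values were seen. A gene of the feedback list is not reported here.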

Additional observations from a re-analysis of the deposited data

How the results depend on the processing

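Nodal, Tdgf1 and Cfc1 kept direction and call under all 19 other settings. Among these, slide as a block is the same fit as leaving out SB431542 replicate 3. Nodal and Cfc1 have a single probe each. Their change is therefore the reported one under the filters, the probe settings, the trend fits and the replicate block. For these genes such settings try the call and not the direction. Gdf1 kept direction and call in 18. It lost the call with the mean of its probes (-0.12), where Gdf3 changed sign (0.0071, against -0.12 as reported). Foxh1 passed under normexp (0.28), median scaling (0.28), an intensity trend (0.26) and a trend with a robust fit (0.26), so that 2 members rose in each of these. With every probe on its own 5 member probes fell. Furin and Pcsk6 passed in none. Leaving out single arrays gave changes of -0.68 to -0.60 for Nodal, -0.53 to -0.48 for Gdf1, -1.12 to -0.98 for Tdgf1, 0.89 to 1.10 for Cfc1 and 0.20 to 0.30 for Foxh1. Over all features 3257 changed, 1344 higher and 1913 lower. These counts were 1467 to 2911, 542 to 1235 and 925 to 1676 without single arrays, 1567, 545 and 1022 with the replicate block, and 1222, 431 and 791 at an adjusted p under 0.01. With no filter on dim probes 2097 changed and 791 were higher. The replicate block changed no member's call. Same-numbered arrays deviated together with correlations of 0.0018, 0.07 and -0.06, and differently numbered ones with correlations of -0.08 to 0.07. With 3 arrays per group these values cannot decide whether the numbers pair the samples. No scaling moved the median of all features past 0.04. Depth limits Cfc1 and the fainter Gdf1 probe, whose signals lie nearest background, and Cer1 could not be measured.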

Other observations

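Of 18 genes that lie next to the members, 12 were tested, 2 were dim and 4 had no matched probe. Of the 12, 1 rose and 2 fell, 3 in all, beside 12.6% of all features. Pald1, beside Nodal, had levels of 1.78, 1.65 and 1.59 with SB431542, against 1.98, 1.95 and 1.95 with DMSO, and fell by 0.28 on the log2 scale (limma adjusted p = 0.0401), whereas Eif4ebp2 on the other side had a log2 difference of 0.03 ± 0.08 (SE). Dppa3, beside Gdf3 and a marker of the naive state, had levels of 1.66, 1.79 and 1.72 with SB431542, against 0.90, 0.91 and 1.05 with DMSO. It rose by 0.77 ± 0.07 (limma adjusted p = 0.00211) next to a gene whose change of -0.12 did not pass. Fam240a and Lrrc2, on either side of Tdgf1, had differences of -0.21 ± 0.15 and -0.26 ± 0.08 and did not pass. Frem1, beside Cer1, was lower with SB431542 (limma adjusted p = 0.00557), but only 1 of the 3 SB431542 arrays measured it above background, so no size is given. The others that did not pass were Fes beside Furin (0.17 ± 0.09), Apobec1 beside Gdf3 (-0.10 ± 0.14), Zdhhc21 beside Cer1 (-0.10 ± 0.06) and Ppp1r16a beside Foxh1 (0.10 ± 0.06), along with Upf1 and Kifc2 described above.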
